A study of Mus musculus with 2 samples.

Results

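The genes described here are the nuclear-encoded genes of mitochondrial oxidative phosphorylation. They were chosen by symbol as every gene whose name began with Nduf, with Cox4 through Cox8, with Uqcr or with Atp5, leaving out 14 symbols that carry the pseudogene mark -ps. The rule found 96 gene identifiers under 95 symbols among 55414 genes, with Atp5o listed under 2 identifiers. Of these, 43 belonged to complex I, 8 were assembly factors of complex I (Ndufaf symbols), 8 belonged to complex III, 19 to complex IV and 18 to complex V. By annotation 92 were protein-coding and 4 were pseudogenes that lack the mark. Those were Ndufs6b, Ndufb4c and Ndufa11b, counted with complex I, and Cox6c2, counted with complex IV. The left-out Cox5b-ps was annotated as protein-coding. Ndufa4 and Ndufa4l2 were counted with complex I because of their symbols, although Ndufa4 is now placed in complex IV.

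Both libraries were made from nuclei of C2C12, an established mouse myoblast line, as single nuclei captured in droplets, with each RNA molecule marked by a unique molecular identifier (UMI). In 1 library the nuclei were treated with yeast poly(A) polymerase, which adds adenines to RNA 3′ ends, and these are called in situ polyadenylated nuclei. The other library held standard nuclei, which received no enzyme and, per the study's methods, no warm incubation either, so enzyme and incubation cannot be told apart. The nuclei were handled with the RNase inhibitor SUPERase-In. In its tests on tissue sections, the study found that this inhibitor failed to keep longer transcripts from degrading during tailing. RNA integrity in these nuclei was not tested here, and the tailing step applied to 1 library only. Each group was 1 library of 1 cell line with no replicate, so no test between conditions was possible, and every interval given here is an exact 95% interval that covers counting error only.

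Complex I passes electrons from NADH to ubiquinone, complex III passes them on to cytochrome c, and complex IV hands them to oxygen. The protons that these complexes pump across the inner mitochondrial membrane drive complex V, the ATP synthase. Some subunits of these complexes are encoded by mitochondrial DNA, and the rest are made from nuclear genes, translated on cytosolic ribosomes and imported. Several complex IV subunits have a muscle form that takes the place of the common form in mature muscle fibres.

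The UMIs counted by kallisto, a pseudoaligner to transcripts, were used unless STAR, an aligner to the genome, is named. Barcodes with more than 750 UMIs and under 5% mitochondrial UMIs were taken as nuclei, 1335 in the in situ polyadenylated library (median 1088 UMIs, 1974289 in all) and 1123 in the standard library (median 996 UMIs, 1382804 in all). No nuclear barcode was shared between the libraries (0 shared). Of 10 myoblast marker genes, 9 had a UMI in in situ polyadenylated nuclei and 10 in standard nuclei, with Des at 360 and 636 UMIs and Vim at 922 and 1314. Itga7 had 175 and 228, Cdh15 42 and 96, and Chrna1 8 and 18. The others had few UMIs: Myod1 15 and 13, Myf5 6 and 9, Myog 3 and 2, Mymk 2 and 2, and Msc 0 and 1. Of 5 endothelial or blood genes that the line should lack, 2 had a UMI in each library, 11 and 39 UMIs in all, of which Pecam1 made up 10 and 35.

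The barcodes with few UMIs, with which nuclei are compared below, did not hold myoblast RNA alone. Whether their RNA came from outside nuclei was not tested, and the word outside is used below only as short for such barcodes. Barcodes with 1 to 10 UMIs carried transcripts of intestinal epithelium and of red blood cells, by 20 and 5 genes chosen after their values were seen. The intestinal genes, among them the lipoprotein genes Apoa4 and Apoa1, the fatty acid carrier Fabp1 and the Paneth cell defensin Defa24, took 1765 UMIs (0.987%, interval 0.942 to 1.03) of that class in the in situ polyadenylated library, with 17 of the 20 genes detected, and 659 UMIs (0.370%, 0.343 to 0.40) in the standard library, with 18 of 20. In barcodes with 11 to 100 UMIs their share was 0.00325% (61 UMIs) and 0.00180% (40 UMIs), and nuclei held 17 and 9 UMIs, with Apoa4, Fabp1 and Apoa1 at 0. The 5 red blood cell genes took 355 and 52 UMIs in barcodes with 1 to 10 UMIs, 21 and 2 in those with 11 to 100, and 1 and 0 in nuclei. Krt20 and Reg3g were the intestinal genes at 0 in the class of 1 to 10 UMIs in both libraries. For this reason each comparison with barcodes of 1 to 100 UMIs is given beside the same comparison with barcodes of 11 to 100 UMIs only, and the part of this foreign RNA in the wider range was not tested.

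The members were short genes. Among the 92 protein-coding members the coding length had a median of 430.5 bp (156 to 2181), against 1578 bp over 8016 protein-coding genes that reached 20 UMIs in nuclei, and the summed intron length had a median of 5759 bp against 21893.5 bp. They lay on 19 chromosomes. A stretch of 31 bases, the unit that kallisto matches, was shared with no other gene at any position in 32 members, whereas 8 members shared over 50% of theirs, so counts of those 8 are uncertain under either route.

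Promoter sequences from RefSeq (build GRCm38.p6) were available for 74 of the 95 symbols, as 79 promoters, and were read over the 250 bases before the start. The letters GCGCATG, the core of the site of nuclear respiratory factor 1 (NRF1), stood on either strand in 12.7% of them (10 promoters), against 3.24% of all 32851 promoters. The letters CCGGAAG, an ETS-family site such as that of GA-binding protein, stood in 16.5% (13) against 6.91%. The YY1 letters AAGATGG were found in 1.27% (1) against 4.49%, and the TATA box letters TATAAA in 10.1% (8) against 12.4%. These are matches of letters, not sites shown to be bound. NRF1, GA-binding protein and YY1 are known regulators of respiratory chain genes. A pair of complex IV promoters is shown because the values of these genes differ below: Cox6a1 encodes the common form of subunit 6a and was detected in nuclei of both libraries, and Cox7a1 encodes the muscle form of subunit 7a and had no UMI in nuclei. The Cox6a1 promoter (chr5:115348959-115349208, minus strand) held the NRF1 letters on both strands, overlapping within 1 palindrome, and the ETS letters once, written in capitals. The Cox7a1 promoter (chr7:30183921-30184170, plus strand) held none of the 4 motifs. The pair was picked by hand and does not stand for the members. Most of the 79 member promoters lacked the NRF1 letters, and most lacked the ETS letters. Whether the letters bear on detection was not tested.
Cox6a1 promoter: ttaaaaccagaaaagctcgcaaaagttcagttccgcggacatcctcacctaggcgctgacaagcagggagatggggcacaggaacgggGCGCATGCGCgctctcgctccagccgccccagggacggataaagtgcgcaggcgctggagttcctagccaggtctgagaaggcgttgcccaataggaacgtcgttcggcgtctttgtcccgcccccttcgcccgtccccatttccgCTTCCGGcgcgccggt
Cox7a1 promoter: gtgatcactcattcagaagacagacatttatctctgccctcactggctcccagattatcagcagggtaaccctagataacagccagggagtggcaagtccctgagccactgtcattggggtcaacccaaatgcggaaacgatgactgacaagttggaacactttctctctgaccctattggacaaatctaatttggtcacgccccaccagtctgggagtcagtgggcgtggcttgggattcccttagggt

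In nuclei, 80 of the 96 identifiers had a UMI in both libraries. The set made up 0.0636% of UMIs (1256 UMIs, interval 0.0601 to 0.0672) in in situ polyadenylated nuclei and 0.184% (2545 UMIs, 0.177 to 0.191) in standard nuclei. As a share of protein-coding UMIs alone, which leaves out non-coding RNA, it was 0.219% and 0.332%. Complex I (463 and 877 UMIs) and complex V (449 and 889) were the largest parts of the set's UMIs in either library, at 36.9% and 34.5% for complex I and 35.7% and 34.9% for complex V. Complex IV took 11.9% of the set's UMIs (150 UMIs, interval 10.2 to 13.9) in in situ polyadenylated nuclei and 15.8% (401 UMIs, 14.4 to 17.2) in standard nuclei, complex III 11.3% (142) and 10.2% (260), and the assembly factors 4.14% (52) and 4.64% (118).

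Complex V gave the genes with the most UMIs. Atp5b, the catalytic beta subunit, had 119 UMIs in in situ polyadenylated and 221 in standard nuclei, and Atp5d, the delta subunit of the rotating stalk, had 74 and 156. In complex I the leading gene was Ndufv1, the subunit that binds NADH and FMN, with 72 and 96 UMIs. Cox4i1, the common form of the largest nuclear-encoded subunit of complex IV, had 36 and 96, and Uqcr10, a small subunit of complex III, had 37 and 76. Among assembly factors Ndufaf2 led with 13 and 30. Every one of these genes had fewer UMIs in in situ polyadenylated nuclei, although those nuclei held more UMIs in all. A UMI marks an RNA molecule whatever its length, so dividing by coding length raises short genes and does not rank genes by molecules. Scaled in this way, Uqcr10 stood highest in both libraries, although Atp5b had more UMIs (119 and 221 against 37 and 76). Uqcr10 was at 97.6 CPM (UMIs scaled to an equal library total) per kb of coding sequence in in situ polyadenylated nuclei. In standard nuclei it was at 286. On that same scale Atp5d followed at 74.4 and 224, while Atp5b, with its long coding sequence, stood at 38.0 and 100.7 and Cox4i1 at 36.0 and 137. Atp5e, the epsilon subunit and the shortest member, was at 26 and 209.

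**Figure D1:**
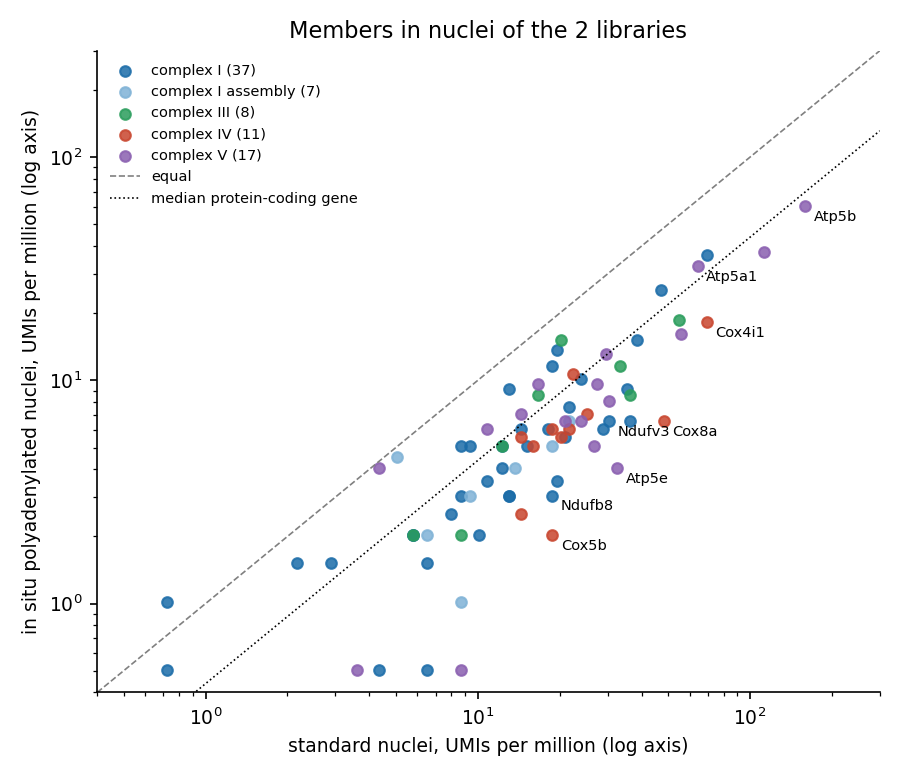
Level of each of the 80 members with a UMI in nuclei of both libraries, in CPM (log axes), standard library on the horizontal axis and in situ polyadenylated library on the vertical axis, coloured by complex. Of the 80 points, 79 lie below the dashed line of equal level, Ndufa12 (2 and 1 UMIs) being the exception, and Cox5b (4 and 26 UMIs), Atp5e (8 and 45) and Cox8a (13 and 67) lie far below the dotted line at which the median protein-coding gene fell.

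In the isoform families the common forms carried the UMIs in nuclei. Cox6a1 had 11 and 20 UMIs in in situ polyadenylated and standard nuclei, and its muscle form Cox6a2 had 0 and 0. Cox6b1 had 10 and 22, against 0 and 0 for the testis form Cox6b2. Cox8a had 13 and 67, with 0 and 0 for the muscle form Cox8b and for Cox8c. Cox4i1 was accompanied by 1 UMI of Cox4i2, the lung form, in in situ polyadenylated nuclei and 0 in standard nuclei. Cox7a2 had 11 and 28 UMIs, Cox7a2l, which joins complexes III and IV, had 14 and 35, and the muscle form Cox7a1 had 0 and 0. By the floor used for ratios here, a count of 0 was read as up to 3 UMIs in a library. Among barcodes with 1 to 10 UMIs, where blood and intestinal genes were found, Cox7a1 had 9 UMIs after in situ polyadenylation and 1 in the standard library, and barcodes with 11 to 100 UMIs had 2 and 1.

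Subunit c of the ATP synthase, which forms its rotating ring, is encoded by 3 nuclear genes whose mature proteins are alike. In nuclei Atp5g3 led with 16 and 42 UMIs, Atp5g1 had 12 and 15, and Atp5g2 had 1 and 5. The last 225 coding bases (75 codons) of each gene are shown because they say how well UMIs can be assigned within the family. They were read from transcripts of GENCODE M39 on GRCm39, for Atp5g1 at chr11:95959678-95966757, Atp5g2 at chr15:102571295-102580787 and Atp5g3 at chr2:73738779-73741933, all on the minus strand, and these coordinates are those of the whole genes. Capitals mark the 57 positions at which at least 1 of the 3 genes differs, of which 52 are the last base of a codon.
Atp5g1: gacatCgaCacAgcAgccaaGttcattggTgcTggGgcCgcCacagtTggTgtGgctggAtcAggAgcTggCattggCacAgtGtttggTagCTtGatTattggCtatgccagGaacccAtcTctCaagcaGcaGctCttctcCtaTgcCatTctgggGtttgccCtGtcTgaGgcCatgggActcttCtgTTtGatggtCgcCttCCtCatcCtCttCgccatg
Atp5g2: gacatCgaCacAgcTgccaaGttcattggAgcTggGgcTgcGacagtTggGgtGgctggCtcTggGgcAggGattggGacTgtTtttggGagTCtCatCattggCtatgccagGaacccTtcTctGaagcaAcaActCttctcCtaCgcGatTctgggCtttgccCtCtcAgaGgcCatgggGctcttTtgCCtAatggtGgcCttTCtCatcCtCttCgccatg
Atp5g3: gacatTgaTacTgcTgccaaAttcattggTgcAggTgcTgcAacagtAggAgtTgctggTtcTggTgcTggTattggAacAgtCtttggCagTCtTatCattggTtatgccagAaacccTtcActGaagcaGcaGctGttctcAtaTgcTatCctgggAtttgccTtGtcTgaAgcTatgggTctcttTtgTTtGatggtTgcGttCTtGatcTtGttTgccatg
Atp5g1 and Atp5g2 had 84.9% of these bases in common (191 of 225), Atp5g1 and Atp5g3 80.0%, and Atp5g2 and Atp5g3 78.7%. The longest run without a difference was 20 bases for the first pair, 11 for the second and 8 for the third, all shorter than 31. The shared sequence lay with pseudogenes instead. Atp5g1 had 78.5% of its 31-base stretches in another gene, 60.8% in Gm10039, and Atp5g2 had 58.6% in Gm10231, whereas Atp5g3 shared none.

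The comparison of in situ polyadenylated with standard nuclei asked whether the members kept their place among mRNAs between the libraries. The ratio of each gene's share of UMIs was expressed on the log2 scale relative to the median over protein-coding genes that reached 50 UMIs in both groups, since that median was itself −1.19. A gene was called higher or lower when this relative log2 ratio was at least 1 in size and its counting interval lay on that side of 0 (the 2-fold rule). At least 20 UMIs over both groups were required, which 59 members met and 37 did not.

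Of those 59 members, 0 were higher and 9 were lower by the rule. Of all 8430 genes tested, 3.2% were higher and 8.66% were lower. The median relative log2 ratio was −0.41 over the 59 members and −0.22 over all genes tested, and 44 of the 59 lay below 0. Pooling the UMIs of all 96 identifiers, tested or not, gave −0.34 (−0.44 to −0.24). By complex the median was −0.38 for 25 members of complex I, −0.57 for 3 assembly factors, −0.20 for 6 of complex III, −0.64 for 11 of complex IV and −0.36 for 14 of complex V. Complex IV stood lowest also when the UMIs of all identifiers of a complex were pooled, at −0.74 (−1.02 to −0.47), against −0.24 (−0.41 to −0.08) for complex I.

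The 9 lower members came from complexes I, IV and V. Cox5b, which binds zinc in complex IV, had 4 UMIs in in situ polyadenylated and 26 in standard nuclei, a relative log2 ratio of −2.02 (−4.0 to −0.50). Atp5e had 8 and 45, at −1.81 (−3.11 to −0.71), and Cox8a, a small membrane subunit of complex IV, had 13 and 67, at −1.69 (−2.67 to −0.82). The other lower genes were Ndufb8, Ndufa7, Ndufa13, Ndufs8 and Ndufv3 of complex I, between −1.44 and −1.01, and Atp5j2 of complex V at −1.21 (10 and 37 UMIs). At the other end were members whose UMI numbers hardly differed between libraries. Uqcrh, the hinge protein of complex III, had 30 and 28 UMIs, a relative log2 ratio of 0.78 (−0.01 to 1.57). Ndufs7 and Ndufa4 both stood at 0.68, with 27 UMIs in each library for Ndufs7, which carries an iron-sulfur cluster, and 18 in each for Ndufa4. Among Cox symbols Cox6c was highest at 0.12 (21 and 31 UMIs), Ndufa4 being counted with complex I. Atp5pb, of the peripheral stalk, was highest in complex V at 0.40 (19 and 23). The lowest in complex III was Uqcrq at −0.88 (17 and 50), and the assembly factors Ndufaf2 and Ndufaf4 stood at −0.53 and −0.70.

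By STAR counts of the same nuclei the members' median was nearer to 0. Of 82 members with at least 20 STAR UMIs, 5 were higher and 2 were lower by the rule, where 15% of 13858 genes were higher and 2.25% were lower. The median relative log2 ratio was −0.05, against 0.08 over all genes, with complex IV at −0.03 and complex V at 0.17. The higher ones were the second Atp5o identifier at 1.89 (58 and 32 UMIs), Atp5j at 1.70 (250 and 158), Ndufs7 at 1.66 (204 and 132), Atp5g1 at 1.36 (15 and 12) and Ndufs6 at 1.19 (38 and 34). The lower ones were Ndufa11 at −1.44 (9 and 50) and Ndufs4 at −1.0 (114 and 468). Of the 9 genes lower by kallisto, 0 were called by STAR. Of these, Ndufs8 (−0.88), Atp5e (−0.77), Cox5b (−0.72), Atp5j2 (−0.71), Cox8a (−0.69) and Ndufa7 (−0.44) lay below 0 by STAR as well, Ndufb8 (0.74) and Ndufv3 (0.26) lay above it, and Ndufa13, with 0 STAR UMIs in both libraries, could not be tested. The 7 assembly factors tested stood at a median of −0.40 by STAR, and the pooled UMIs of all 8 at −0.48 (−0.62 to −0.35).

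Next, the members were followed across barcodes of increasing depth. In the in situ polyadenylated library the set took 1.11% (1986 UMIs, interval 1.06 to 1.16) of the UMIs in barcodes with 1 to 10 UMIs, 17.5-fold its share in nuclei (16.3 to 18.7). In barcodes with 11 to 100 UMIs it took 0.0915% (1717 UMIs), 1.44-fold the share in nuclei (1.34 to 1.55). In barcodes above 100 UMIs the share lay between 0.0616% and 0.0688% in every class. In the standard library it was 0.557% (991 UMIs), 0.292% (6485 UMIs) and then 0.171% to 0.210%, which was 3.03-fold (2.81 to 3.26) and 1.59-fold (1.52 to 1.66) the share in nuclei for the first 2 classes. As a share of protein-coding UMIs alone, which leaves out non-coding RNA, the folds were smaller. They were 10.5 (9.82 to 11.3) and 1.35 in the in situ polyadenylated library, and 2.53 (2.35 to 2.72) and 1.54 in the standard library. The high share in the lowest class stood beside that of the intestinal and blood genes in both libraries, and the smaller step between 11 to 100 UMIs and nuclei was seen in a class where those genes were at 0.00325% and 0.00180%. The cytosolic ribosomal protein genes, as another set of short and abundant mRNAs, stood 9.69-fold and 1.66-fold above nuclei in the lowest class and 1.22-fold and 1.28-fold in the next. Of protein-coding UMIs alone, these genes stood 5.85-fold and 1.39-fold above nuclei in the lowest class.

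**Figure D2:**
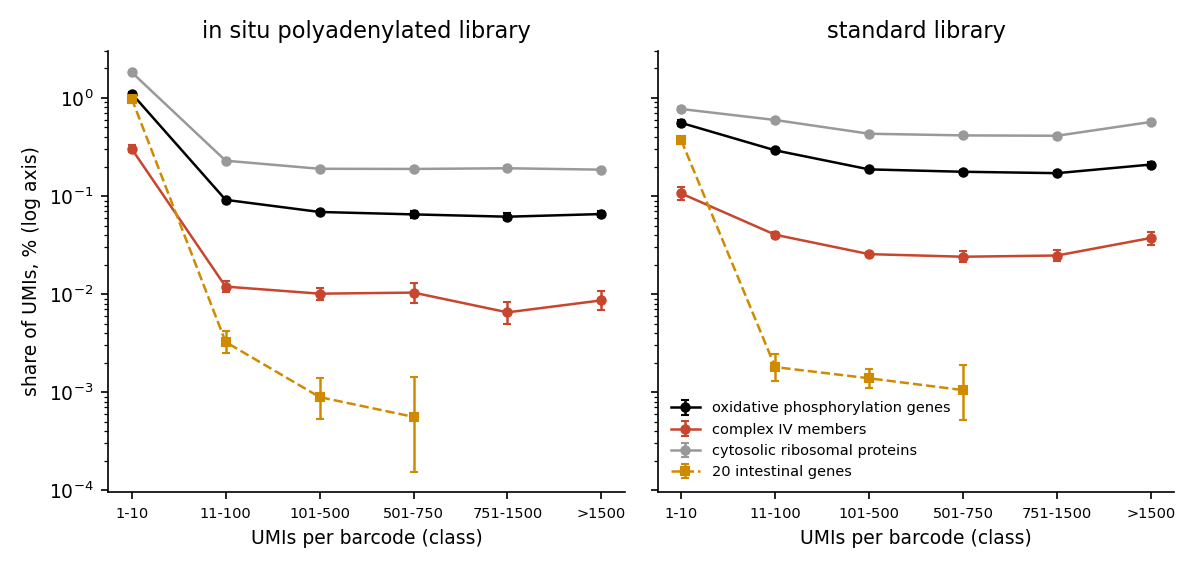
Share of all UMIs (%, log axis) against the UMIs per barcode (classes) for the oxidative phosphorylation genes, the complex IV members, cytosolic ribosomal protein genes and 20 intestinal genes, in the in situ polyadenylated library (left) and the standard library (right); bars are exact 95% counting intervals. The set stands at 1.11% and 0.557% in barcodes with 1 to 10 UMIs, where the intestinal genes stand at 0.987% and 0.370%, and both lines drop in the next class.

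In the in situ polyadenylated library complex IV differed most between the lowest class and nuclei. It held 542 UMIs (0.303%) in barcodes with 1 to 10 UMIs, 39.9-fold its share in nuclei (33.2 to 48.1), whereas complex I stood 14.8-fold (13.1 to 16.7), complex III 23.3-fold (19.0 to 28.7) and complex V 12.3-fold (10.8 to 14) above nuclei. Of protein-coding UMIs alone, complex IV stood 24.1-fold (20.1 to 29.1), complex III 14.1-fold, complex I 8.94-fold and complex V 7.44-fold above nuclei. In the standard library complex III stood 4.25-fold (3.44 to 5.23) and complex IV 3.66-fold (3.07 to 4.37) above nuclei, with intervals that overlap. The assembly factors, which are not part of the finished enzyme, stood 4.67-fold above (2.7 to 7.83) with 22 UMIs in the in situ polyadenylated library. There complex IV made up 27.3% of the set's UMIs in the lowest class (25.3 to 29.3), against 13.0% (11.5 to 14.7) in barcodes with 11 to 100 UMIs and 11.9% in nuclei. In the standard library its part was 19.1% (16.7 to 21.7), 13.8% (13.0 to 14.6) and 15.8%. In barcodes with 11 to 100 UMIs the complexes stood close together, between 1.22-fold (complex III, 0.971 to 1.54) and 1.57-fold (complex IV, 1.27 to 1.94) above nuclei in the in situ polyadenylated library.

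Gene by gene, nuclei were compared with barcodes of 1 to 100 UMIs under the same 2-fold rule. In the in situ polyadenylated library 68 members were tested, 0 were higher in nuclei and 42 were lower, where 1.16% of 8018 genes were higher and 13.1% were lower. The median relative log2 ratio was −1.42, against −0.30 over all genes, and all 68 lay below 0. With barcodes of 11 to 100 UMIs only, 53 members were tested, 0 were higher and 5 were lower, where 1.52% of 7613 genes were higher and 9.58% were lower. The median was then −0.49, against −0.23 over all genes. The 5 lower genes, all among the 42, were Cox7b (5 UMIs in nuclei, 19 outside, −1.93), Atp5e (8 and 28, −1.81), Atp5j2 (10 and 29, −1.54), Cox6a1 (11 and 29, −1.40) and Cox4i1 (36 and 75, −1.06). Thus 11.9% of the calls made with the wider range of barcodes were made in the narrower one. Some of the 42, such as Ndufa3 (3 UMIs in nuclei, 5 outside) and Atp5mpl (8 and 11), fell under 20 UMIs there and could not be called. The share of members lower, 5 of the 53 tested, was near the background.

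In the standard library the wider and the narrower range gave closer results. Of 76 members, 0 were higher in nuclei and 17 were lower against barcodes of 1 to 100 UMIs, where 2.09% of 10730 genes were higher and 6.84% were lower. Against barcodes of 11 to 100 UMIs, 0 were higher and 11 were lower, all among the 17, where 2.17% of 10553 genes were higher and 6.92% were lower. The median relative log2 ratio was −0.77 and −0.70, against −0.15 and −0.16 over all genes, and 69 of 76 members lay below 0 in either case. Pooled UMIs of all 96 identifiers gave −0.70 (−0.77 to −0.64) and −0.62 (−0.69 to −0.56).

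The standard library's lower genes were mostly small subunits of complexes I, III and V. Ndufa4 had 18 UMIs in nuclei and 111 in barcodes of 11 to 100 UMIs, a relative log2 ratio of −1.90 (−2.70 to −1.17). Atp5mpl, a small proteolipid that associates with the ATP synthase, had 6 and 38, at −1.94 (−3.47 to −0.68). Atp5g1 had 15 and 74, at −1.57 (−2.48 to −0.76), Uqcr11 23 and 91, at −1.26 (−1.98 to −0.58), and Uqcrh 28 and 108, at −1.22 (−1.87 to −0.61). In the in situ polyadenylated library Uqcrh (0.38), Ndufa4 (0.26), Cox6c (0.39) and Ndufa13 (0.12) lay above 0 against barcodes of 11 to 100 UMIs, though below −1 against those of 1 to 100. Ndufa3, an accessory subunit of complex I, had 4 and 21 UMIs (−1.66) and Ndufaf6, the assembly factor among the 11, had 7 and 28 (−1.27). Ndufb5, Ndufb10, Ndufa11 and Ndufv1 made up the rest, between −1.37 and −1.0. Complex IV by symbol had a median of −0.22 and 0 of 11 members were lower in this narrower comparison. Ndufa4 (−1.90), counted with complex I, was not among those 11. The lowest genes of the wider range were Ndufa3 and Atp5mpl, both at −2.32, and its highest were the assembly factors Ndufaf5 at 0.65 (13 UMIs in nuclei and 15 outside) and Ndufaf8 at 0.27 (12 and 18), followed by Cox5a, a subunit on the matrix side of complex IV, at 0.24 (30 and 46).

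In the in situ polyadenylated library the wider range put Atp5md at −4.81 (1 UMI in nuclei and 31 outside), Atp5e at −4.03 (8 and 145), Cox7b at −3.64 (5 and 69) and Cox5b at −3.55 (4 and 52). In complex III Uqcrq was lowest at −2.45 (17 and 103), and in complex I Ndufa3 at −3.22 (3 and 31). The highest member of each complex was Ndufs3, a core subunit of complex I, at −0.18 (12 and 15), Atp5pb at −0.25 (19 and 25), Cox7a2l at −0.37 (14 and 20), Ndufaf6 at −0.38 (9 and 13) and Uqcrc2, a core protein of complex III, at −0.53 (10 and 16). The short members were lower than the long ones in this range. The median relative log2 ratio was −2.36 for members with under 300 bp of coding sequence (16 of 17 lower), −1.69 from 300 to 450 bp (15 of 18), −1.09 from 450 to 900 bp (9 of 20) and −0.53 for longer ones (2 of 13). Protein-coding genes as a whole had the same order, with medians of −1.62 (67 of 96 lower), −0.78 (114 of 315), −0.50 (200 of 1158) and −0.21 (458 of 6035). Against barcodes of 11 to 100 UMIs this order was gone among the members tested there, with −0.42, −0.49, −0.66 and −0.34 for the same classes. Atp5md (1 UMI in nuclei, 7 outside), Ndufa3 (3 and 5) and Cox5b (4 and 7) had under 20 UMIs in that range and were not among them. Spearman's rho between coding length and ratio, across genes that share their libraries, was 0.68 over 68 members with the wider range and 0.08 over 53 with the narrower one, against 0.33 and 0.21 over all protein-coding genes tested. In the standard library it was 0.24 and 0.15 over 76 members.

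**Figure D3:**
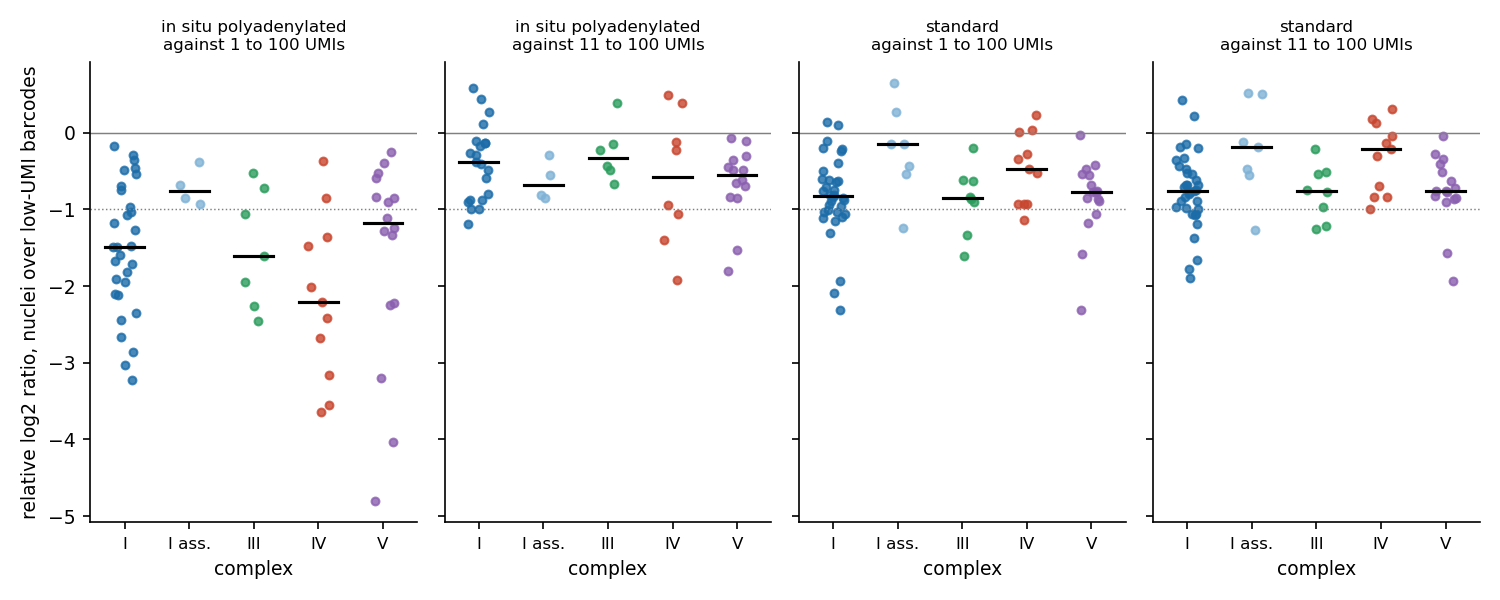
Relative log2 ratio of nuclei over low-UMI barcodes for each member with at least 20 UMIs, by complex (I ass., assembly factors of complex I), with black bars at medians, a solid line at 0 and a dotted line at the 2-fold limit of −1. From left to right the panels show the in situ polyadenylated library against barcodes with 1 to 100 UMIs (68 members, median −1.42) and with 11 to 100 UMIs (53, −0.49), then the standard library against the same ranges (76, −0.77, and 76, −0.70).

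Counting by STAR in place of kallisto asked which members depend on the way reads are assigned, since the genome route can count reads from introns. On the same nuclei STAR gave the set 5470 UMIs after in situ polyadenylation, 0.0474% of all, and 11134 UMIs or 0.178% in the standard library. Relative to the median protein-coding gene, 11 of 69 members were higher by STAR and 5 were lower in in situ polyadenylated nuclei, where 35.8% of 11888 genes were higher and 3.36% were lower. In standard nuclei 10 of 80 were higher and 13 were lower, where 30.9% of 12524 genes were higher and 6.55% were lower. The median relative log2 ratio was 0.08 and −0.27 over the members tested and 0.75 and 0.48 over all genes tested. Of the higher ones 9 were the same identifiers in both libraries (81.8% and 90.0% of each list), and the 5 lower ones of the in situ polyadenylated library were all lower in the standard library too. Both routes count the same molecules, so the counting intervals are only a guide here.

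The ratio was higher in members with long introns. In members with under 3000 bp of introns the median relative log2 ratio of STAR over kallisto was −0.21 in in situ polyadenylated and −0.89 in standard nuclei, from 3000 to 10000 bp −0.04 and −0.44, from 10000 to 30000 bp 0.62 and 0.58, and above 30000 bp, with 6 members, 1.72 and 1.24. Across members, which are not independent, Spearman's rho with intron length was 0.62 (n = 69) and 0.64 (n = 80), against 0.50 and 0.61 over protein-coding genes. Among members with UMIs by both routes, those with the longest introns lay on chromosome 13. Ndufaf2 (chr13:108139249-108295189, GRCm39, minus strand, 105357 bp of introns in its main transcript) had 336 UMIs by STAR and 13 by kallisto in in situ polyadenylated nuclei, and 1023 and 30 in standard nuclei, relative log2 ratios of 2.73 and 2.86. Ndufs4 (chr13:114421982-114524794, minus strand, 98766 bp of introns), an accessory subunit needed for stable complex I, had 114 against 4 and 468 against 8 UMIs, at 2.87 and 3.63. Their gene bodies held 23 and 10 runs of at least 10 adenines on the sense strand. By STAR Ndufaf2 had the most UMIs of all 96 identifiers in both libraries.

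**Figure D4:**
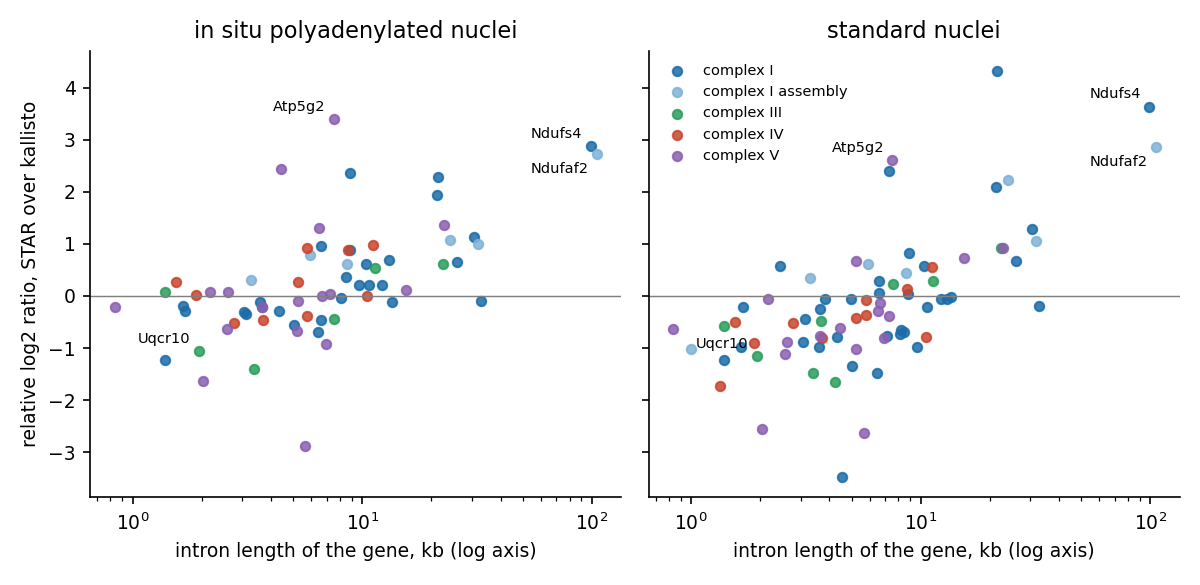
Relative log2 ratio of STAR over kallisto UMIs on the same nuclei against intron length in kb (log axis), 1 point for each member with at least 20 UMIs, coloured by complex, for in situ polyadenylated nuclei (left) and standard nuclei (right); members with 0 UMIs by 1 of the routes, such as Ndufa13, are not drawn. Members with long introns stand highest, with Ndufs4 at 2.87 and 3.63 and Ndufaf2 at 2.73 and 2.86, and Uqcr10, with short introns, lies at −1.06 and −1.15.

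Some members moved between routes with shared or overlapping sequence. Ndufa13 (chr8:70346808-70355872, minus strand), an accessory subunit of complex I, had 13 and 50 UMIs by kallisto and 0 by STAR in both libraries, and Yjefn3 on the same strand overlapped 94.4% of its body. Ndufb8 (chr19:44537011-44543939, minus strand) had 26 kallisto and 11 STAR UMIs in standard nuclei, at −3.48, with 98.6% of its body overlapped by Gm20538. Atp5o was split between an identifier with 19 and 38 kallisto UMIs and 10 and 29 STAR UMIs, and a second one spanning chr16:91481286-91723870 that had 0 by kallisto and 58 and 32 by STAR. In the subunit c family the order changed. STAR gave Atp5g3 66 and 190 UMIs, Atp5g2 41 and 143, and Atp5g1 15 and 12, so that Atp5g2, at 1 and 5 by kallisto, passed Atp5g1. Ndufa12, with 25.8% of its 31-base stretches in the pseudogene Ndufa12-ps, had 38 and 94 UMIs by STAR against 2 and 1 by kallisto. How far the overlaps and copies account for these differences was not tested. Other members lower by STAR in both libraries were Uqcr10 (69 against 37 and 161 against 76 UMIs), Uqcr11 and Ndufb11, all with short introns.

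In single nuclei the set gave few UMIs. In situ polyadenylated nuclei held a mean of 0.942 UMIs of the set (median 1, highest 20) and standard nuclei 2.27 (median 2, highest 28). At least 1 UMI was found in 669 of 1335 nuclei (50.1%, interval 47.4 to 52.8) and in 876 of 1123 (78.0%, 75.5 to 80.4). After each nucleus was thinned to 750 UMIs the shares were 35.5% (32.9 to 38.1) of 1335 and 67.9% (65.1 to 70.7) of 1120 nuclei, with 0 and 3 nuclei too shallow. The libraries held no cell type known to lack these genes, so the part of free RNA in these shares has no measured background. The spread of set UMIs between nuclei was 1.71 times that of binomial draws at the same depths in in situ polyadenylated nuclei and 2.31 times in standard nuclei, and 1.39 and 1.99 times when draws were made from protein-coding UMIs. The nucleus with the most set UMIs had 20 of 4002 UMIs after in situ polyadenylation and 28 of 1012 in the standard library. Nuclei with over 12 set UMIs numbered 2 and 17.

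**Figure D5:**
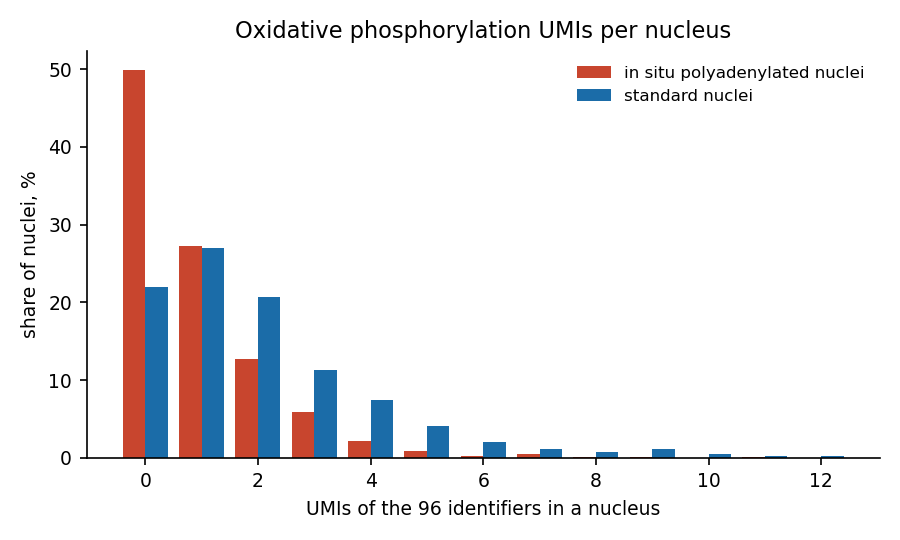
Share of nuclei (%) by the number of UMIs of the 96 identifiers in a nucleus, for 1335 in situ polyadenylated and 1123 standard nuclei; 2 and 17 nuclei with over 12 such UMIs are not drawn. In situ polyadenylated nuclei without a UMI of the set were 666, standard nuclei without one 247.

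Other genes were read from further lists. Ribosomal protein and mitochondrially encoded genes were chosen by symbol pattern, as the members were, and the other lists were written gene by gene. In in situ polyadenylated over standard nuclei the subunits of complex II, which is succinate dehydrogenase and wholly nuclear-encoded, had a median relative log2 ratio of −0.01 with 1 of 3 lower. Other assembly factors stood at −0.29 with 1 of 16 lower, and mitochondrial ribosomal proteins at −0.22 with 0 of 50 higher and 5 lower. Cytosolic ribosomal proteins stood at −0.22 with 4 of 64 higher and 4 lower. Regulators of mitochondrial biogenesis stood at 0.46 with 1 of 9 higher, and of cytochrome c and c1 1 gene was tested, at −0.12. The symbol rule did not take Cyc1, the gene of cytochrome c1, into complex III. The 37 mitochondrially encoded genes are the subunits of the same complexes made from mitochondrial DNA, together with the mitochondrial rRNAs and tRNAs. Their median was 1.45, with 8 of 8 tested genes higher by the rule in in situ polyadenylated nuclei. By STAR it was 2.17 with 16 of 16 tested genes higher, beside −0.05 for the nuclear members. These ratios are relative to a median protein-coding gene at −1.19 by kallisto and −1.92 by STAR. The plain share of UMIs of these mitochondrial genes differed little. It was 0.377% in in situ polyadenylated and 0.345% in standard nuclei by kallisto, and 0.129% and 0.135% by STAR. In the comparison of nuclei with barcodes of 11 to 100 UMIs, mitochondrial ribosomal proteins stood at −0.39 and −0.60 in the in situ polyadenylated and standard libraries and cytosolic ribosomal proteins at −0.17 and −0.34, beside −0.49 and −0.70 for the oxidative phosphorylation genes.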

How the data were processed

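Groups of 1 library each were taken from the labels: in situ polyadenylated and standard C2C12 nuclei. Per the submitters' processing notes, the authors used GRCm39 with cutadapt 3.4, kallisto 0.48.0, bustools 0.41.0 and STAR 2.7.10a. Values deposited from kallisto are estimated counts of UMIs by gene and barcode, counted by strand and not normalized, of which 1.10% (in situ polyadenylated) and 2.65% (standard) were not whole. Sums were rounded. The deposited STAR matrices hold whole-number counts of UMIs for fewer barcodes, not normalized, of which 1328 and 1123 nuclei were used. How those barcodes were chosen, and whether STAR counting included introns, is not stated in the sources used here.

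Python 3.11.15 with numpy 2.4.6, scipy 1.17.1, pandas 2.3.3 and matplotlib 3.10.9 was used. Shares carry Clopper-Pearson intervals and ratios exact conditional Poisson intervals, all at 95%. Groups at 0 were given 3 UMIs as a floor, so that the ratio is a bound. Of 55414 genes, 54749 were matched by identifier to GENCODE M39. Introns and coding lengths came from its canonical transcripts. Doublets were not called, and 1 alternative dropped the deepest 5% of nuclei. Thinning drew 750 UMIs per nucleus without replacement. The ratio code was tested on simulated data.

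For each complex the members with the most UMIs and with the highest and lowest ratio in each comparison were named, with the isoform families. Members, lists and rule were chosen with earlier results of these data known. Intestinal and red blood cell genes, and genes named for an overlap or a copy, were picked after their values were seen. Alternatives were other nucleus and gene minima, other low-UMI ranges, subunits only, members with own sequence, other denominators and centres, STAR counts, and other thinning depths.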

Additional observations from a re-analysis of the deposited data

Results flagged for a closer look

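Signal from genes that are not part of the report's comparisons appeared in the barcodes with 1 to 10 UMIs. The 20 genes of intestinal epithelium had 1765 UMIs there after in situ polyadenylation and 659 without it, against 17 and 9 in nuclei. The 5 genes of red blood cells had 355 and 52 UMIs, against 1 and 0 in nuclei. Where this RNA came from was not tested. The pseudogene symbols that the rule left out had 7 UMIs in the standard library's barcodes with 1 to 100 UMIs, 6 of them from Ndufa12-ps, against 0 in its nuclei.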

How the results depend on the processing

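No paired analysis was possible because a group was a single library. The precision is set by small counts: of the 96 identifiers 37 had under 20 UMIs in nuclei of both libraries together, and foreign RNA in barcodes with 1 to 10 UMIs limits every comparison with barcodes of 1 to 100 UMIs. A median was taken to have moved when it shifted by more than the half-width of the pooled counting interval. Counts of members higher or lower were judged by a fold limit instead. Counts that stayed at 0 are among the values that did not move, and say little about stability. Of 187 recomputed summary values 119 did not move, 64 moved and 4 turned sign. Of 661 recomputed values of single genes 563 did not move, 73 moved and 25 turned sign. Causes were not tested.

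The set share of 0.184% in standard nuclei was 0.210% in nuclei with more than 1500 UMIs, 0.176% for subunits only, 0.174% for members with own sequence, 0.332% of protein-coding UMIs and 0.262% without rRNA and mitochondrial genes. The share of 0.0636% in in situ polyadenylated nuclei was 0.219% of protein-coding UMIs, 0.124% without rRNA and mitochondrial genes, and 0.0474% and 0.0471% by STAR on the same nuclei and on STAR's own nuclei. The log2 ratio of these shares, −1.53, was −1.68 above 1500 UMIs, −0.60 of protein-coding UMIs, −1.08 without rRNA and mitochondrial genes, and −1.91 and −1.97 by STAR. The share of nuclei with a UMI of the set, 35.5% and 67.9% after thinning to 750 UMIs, was 23.9% and 54.0% at 500 UMIs and 50.1% and 78.0% without thinning.

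For in situ polyadenylated over standard nuclei (median −0.41, 0 higher, 9 lower) the results were −0.64, 1 and 4 above 1500 UMIs, −0.048, 5 and 2 by STAR, and −0.12, 4 and 1 by STAR on its own nuclei. Without centring the median was −1.60 with 46 lower, since the median protein-coding gene stood at −1.19. Centred on ribosomal proteins it was −0.30, and 5 were lower with a gene minimum of 50 UMIs. By STAR on the same and its own nuclei Ndufv3 turned to 0.26 and 0.32 and Ndufb8 to 0.74 and 1.03.

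After in situ polyadenylation, for nuclei over barcodes with 1 to 100 UMIs (−1.42, 0 higher, 42 lower) the median was −1.52 above 1500 UMIs, −1.57 without the top 5% of nuclei, −4.15 against barcodes with 1 to 10 UMIs, −0.49 with 5 lower against 11 to 100, −0.047 with 1 higher and 0 lower against barcodes above 100 and up to 500 UMIs, and −1.69 with 26 lower at a gene minimum of 50. Against 11 to 100 UMIs Cox6c (0.39), Ndufa4 (0.26), Ndufa13 (0.12) and Uqcrh (0.38) turned sign. Against barcodes above 100 and up to 500 UMIs Cox5a (0.68), Cox6c (0.40), Atp5g3 (0.29), Uqcr11 (0.60), Ndufa4 (0.46), Uqcr10 (0.30) and Uqcrh (0.00093) did. In the standard library (−0.77, 0 higher, 17 lower) the median was −0.64 and −0.68 above 500 and 1500 UMIs, and −1.29 with 32 lower against 1 to 10 UMIs. It was 0.0024 with 1 higher and 1 lower against barcodes above 100 and up to 500 UMIs, and 11 were lower against 11 to 100.

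For STAR over kallisto in in situ polyadenylated nuclei (0.08, 11 higher, 5 lower) the median was −0.011 above 500 UMIs, 0.24 with 7 higher and 1 lower above 1500, 0.22 with 2 lower at a gene minimum of 50, and −0.0051 over all barcodes deposited with STAR. The plain ratio, which shifts all genes by the same amount and put 95.8% of all genes on the higher side, gave 2.04 with 64 higher and 0 lower, so that Atp5g1 (0.32), Uqcr11 (0.56), Ndufb11 (0.72) and Uqcr10 (0.90) turned sign. In standard nuclei (−0.27, 10 higher, 13 lower) it was −0.38 above 500 UMIs, −0.057 with 5 lower above 1500, −0.38 for subunits only, −0.21 at a gene minimum of 50 and −0.40 over all STAR barcodes. The plain ratio, with 94.5% of all genes higher, gave 1.96 with 71 higher and 2 lower, so that by this same shift Uqcr11 (0.76), Uqcrb (0.58), Atp5b (1.22), Ndufb11 (1.0), Uqcr10 (1.08) and Cox5b (0.51) turned sign.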
